A study of Mus musculus with 20 samples.

Results

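The 45 genes described here are interferon-stimulated genes, which cells turn on after they sense a type I interferon. They were chosen by name from a list of gene symbols. The rule uses no measured value, although the list was drawn up with earlier results of these data known. All 45 were found among the 14456 genes of the normalized count table, by pairing its Ensembl identifiers with GENCODE M21 symbols. The table covers 20 libraries of bone marrow-derived macrophages (BMDM) of the mouse, grown from the marrow of male C57BL/6 mice aged 8 to 12 weeks with 25 ng/ml of the growth factor M-CSF for 6 days. The labels give no genetic change for any group. In the glucose experiment, BMDM spent 24 h at 25 mM glucose (HG, high, n = 4 libraries) or at 5.5 mM glucose plus 19.5 mM mannitol, a sugar alcohol that evens out the osmolarity (NG, normal, n = 4). For the exosome experiment, naive BMDM were exposed for 24 h to PBS or to 2000000000 particles/ml of exosomes, the small vesicles that cells release, isolated from the medium of other BMDM that had been cultured in normal glucose (BMDM-NG-exo) or in high glucose (BMDM-HG-exo), with n = 4 libraries each. The exosome libraries carry 4 dates that occur in all 3 groups and are numbered here 1 to 4, where a number stands for the same date in each group and the numbers do not follow the order of time, while the glucose libraries carry the numbers 1, 3, 5 and 6 (normal) and 1, 2, 4 and 6 (high). Nothing in the labels says that the glucose libraries came from separate mice, so that p-values there measure the spread between these libraries, which may be technical.

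Type I interferons (interferon alpha and beta) bind a receptor made of IFNAR1 and IFNAR2, whose kinases TYK2 and JAK1 phosphorylate STAT proteins. Phosphorylated STAT2 enters a complex with IRF9 called ISGF3, which binds a short DNA element, the interferon-stimulated response element (ISRE), before the genes it turns on. Their products sense viral nucleic acid, block viral RNA and protein synthesis or tune the response itself, and macrophages express many of them at a low tonic level without infection.

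The core of the ISRE can be read directly in the promoters of several members. Promoter windows of the RefSeq annotation (build GRCm38.p6), limited to the 250 bases before the start of transcription, were given for 33 of the 45 members. The motif searched was GAAANNGAAA, where N is any base, on both strands and with overlapping matches counted. It was found in 12 of these 33 windows (36.4%), in 3.04% of the windows of 27025 genes, and in 2.82% of the windows of 9742 genes of the count table. A second motif, TTCNNNGAA, the core of the gamma-activated site of interferon gamma signalling, was found in 4 of the 33 windows (12.1%), against 7.18% of all windows. The stretches of the 6 members with a match that the results below turn on are printed in gene orientation, 5′ to 3′, because they show the element and its repeats, with the matched bases in capitals.
Isg15: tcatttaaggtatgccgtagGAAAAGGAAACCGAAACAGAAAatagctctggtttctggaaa
Ifit1: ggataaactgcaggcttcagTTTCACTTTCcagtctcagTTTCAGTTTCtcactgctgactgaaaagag
Ifit3: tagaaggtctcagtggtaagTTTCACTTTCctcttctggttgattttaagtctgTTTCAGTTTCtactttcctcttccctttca
Ifit3b: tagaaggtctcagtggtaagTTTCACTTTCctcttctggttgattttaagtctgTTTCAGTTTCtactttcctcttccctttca
Stat2: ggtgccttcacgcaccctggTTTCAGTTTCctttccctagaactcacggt
Slfn5: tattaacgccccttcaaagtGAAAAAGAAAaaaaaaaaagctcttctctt

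The stretch of Isg15 lies at chr4:156200855-156200916 (minus strand), and 3 overlapping matches run from 78 to 57 bases before the start. That of Ifit1 lies at chr19:34640765-34640833 (plus strand) and holds 2 matches on the opposite strand, so that the motif reads there as its reverse complement. The stretches of Ifit3, at chr19:34583353-34583436 (plus strand), and of Ifit3b, at chr19:34607749-34607832 (plus strand), are the same 84 bases letter for letter, with 2 matches each, although they start 176 and 208 bases before their genes. The single match of Stat2, at chr10:128270256-128270305 (plus strand), begins 222 bases before the start, and that of Slfn5, at chr11:82951927-82951976 (plus strand), begins 155 bases before it. In GENCODE M21, which was used for the counts, Slfn5 starts at base 82951349. Its stretch therefore lies inside that gene and before a RefSeq start further along. A match is a description of the letters and not evidence of binding. Over the 12 members with a match, the median log2 fold change in high glucose was 0.55 (range 0.27 to 0.98). Over the 21 without one it was 0.42 (range -0.09 to 1.14). Against PBS, the medians for BMDM-HG-exo were -0.46 (range -1.02 to -0.24) and -0.33 (range -1.03 to -0.06). The ranges with and without a match overlapped in both comparisons, and the difference of the medians was not tested.

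The reads behind the normalized counts, recovered as whole numbers, added up to between 34016445 and 56310712 per library. A member gene had between 67 reads (the lowest library of any member) and 19499 reads, and the 45 genes together took 0.280% to 0.486% of the reads of a library. All 45 had a mean normalized count of at least 10, the limit set for testing, in each fit. The macrophage identity of the libraries was checked with 8 markers (Csf1r, Adgre1, Cd68, Mertk, Lyz2, Itgam, Fcgr1 and Cd14), all of which were listed. Of 6 markers of plasmacytoid dendritic cells, which are potent producers of type I interferon, only Tcf4 and Runx2 were listed. No marker of NK cells, conventional dendritic cells, erythroid cells or mast cells was listed. Other cell types had listed markers: 4 of 8 for neutrophils and their precursors and 5 of 6 for fibroblasts and stromal cells. Endothelial cells had 3 of 5, T cells 1 of 6 (Cd4) and B cells 1 of 5 (Cd79b). In normal glucose the 8 macrophage markers summed to 628420 to 702912 normalized counts per library. The sums were 6854 to 7374 for plasmacytoid dendritic cells and 6462 to 7666 for endothelial cells. They were 173 to 270 for neutrophils, 143 to 234 for fibroblasts, 73.3 to 103 for T cells and 32.1 to 57.6 for B cells. In bulk RNA, a change in the number of cells that express a gene and a change in the RNA per cell cannot be told apart.

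**Figure D1:**
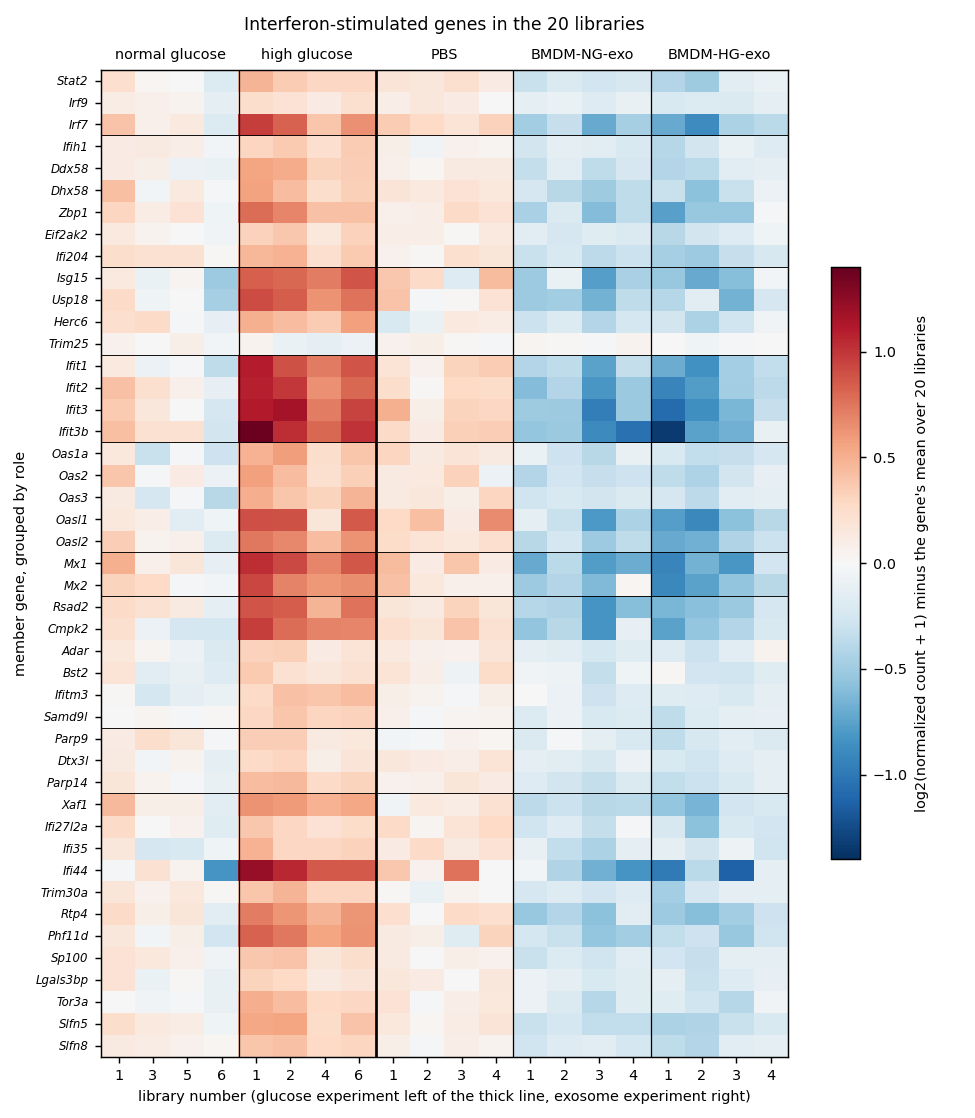
Levels of the 45 members (rows, grouped by role) in the 20 libraries (columns), as log2(normalized count + 1) minus the mean of the gene over the 20 libraries, red above and blue below that mean. The high glucose columns are red and the columns of both exosome groups are blue in nearly every row, and the row of Trim25 is nearly white.

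Whether glucose itself changed these genes was asked by comparing high with normal glucose. Nearly the whole list was higher in high glucose: 43 of the 45 members passed the test and rose, none fell, and Trim25 and Parp9 did not pass. The median log2 fold change of the members was 0.42, a 1.34-fold difference, while the median over all 14425 genes tested was near 0 (7.74% of them were called higher, 5.53% lower and 13.3% in either direction). In 33 members each of the 4 high glucose libraries lay above each of the 4 normal glucose libraries, a pattern found for 9.18% of all genes. Genes were called at a Benjamini-Hochberg adjusted p under 0.05 of limma's moderated test on log2(normalized count + 1), and fold changes are on that scale. For a member whose groups did not overlap, the exact two-sided permutation test of 4 against 4 libraries gave p = 0.0286, the smallest value it can give.

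The transcription factors come first in the pathway. Stat2, the STAT that recruits IRF9 into ISGF3, counted 4069, 3534, 3464 and 3036 in the normal glucose libraries and 4819.9, 4431, 4228 and 4233 in the high glucose libraries. All 4 high values lay above the normal ones, and the log2 fold change was 0.33 ± 0.06 (SE, adjusted p = 6.27e-05, limma). Irf9, the DNA-binding subunit of ISGF3, counted 3382, 3291, 3248 and 2878 in normal and 3716, 3617, 3401 and 3673 in high glucose. Its change was the smallest of the 43 called members, at 0.17 ± 0.05 (SE, adjusted p = 0.016, limma), and the groups did not overlap, although 123 bases of Irf9 overlap Rnf31 on the same strand. Irf7, the factor that amplifies interferon production, counted 2509, 2000.3, 2106 and 1674 in normal and 3738, 3379.6, 2498 and 2968 in high glucose. Here library 4 of high glucose lay just below library 1 of normal glucose, so the groups overlapped by 1 library, with an exact permutation p = 0.0571. The log2 fold change of Irf7 was 0.60 ± 0.09 (SE, adjusted p = 2.87e-06, limma).

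The 8 largest increases were in Ifi44, in the 4 IFIT genes, and in Isg15, Cmpk2 and Usp18. Ifit1, whose protein binds viral RNA that lacks host cap methylation, counted 1145, 980.4, 1027 and 808 at normal glucose and 2227, 1924, 1712 and 1916 at high glucose. The groups were far apart, with means of 990.0 ± 139.8 and 1945 ± 212 (SD, n = 4), and the log2 fold change was 0.98 ± 0.08 (SE, adjusted p = 1.84e-11, limma). Ifit2 counted 3946, 3463, 3114 and 2744 in normal and 6303, 5896, 4626 and 5202 in high glucose, a log2 fold change of 0.73 ± 0.07 (SE, adjusted p = 2.93e-09, limma). Ifit3 counted 1757, 1528, 1368 and 1159 in normal and 2938, 3053, 2237 and 2635 in high glucose. Its near copy Ifit3b counted 459, 396, 396 and 286 in normal and 888, 699, 598 and 689.9 in high glucose. Neither gene's groups overlapped, and both had a log2 fold change of 0.91, with adjusted p = 4.4e-10 and 4.6e-07 (limma). Of the stretches of 75 bases in their transcripts, 41.1% of those of Ifit3 occur also in Ifit3b and 35.7% of those of Ifit3b in Ifit3, so reads may be split between them.

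Isg15 encodes a ubiquitin-like protein that is attached to target proteins, and Usp18 encodes the protease that removes it and dampens IFNAR2 signalling. Isg15 counted 233, 198, 217 and 148 at normal and 379, 369.6, 349 and 391 at high glucose. The lowest high glucose library stood above the highest normal one, and the log2 fold change was 0.92 ± 0.14 (SE, adjusted p = 5.52e-06, limma). Usp18 counted 713, 566, 592 and 428 in normal and 1114, 1065, 914 and 1001 in high glucose, a log2 fold change of 0.85 ± 0.10 (SE, adjusted p = 8.45e-08, limma). Cmpk2, a mitochondrial nucleotide kinase gene, counted 1026, 833, 751 and 743 and 1723, 1510.3, 1429 and 1415, a log2 fold change of 0.87 ± 0.08 (SE, adjusted p = 6.73e-10, limma). Ifi44, a gene induced strongly by interferon, counted 142, 169, 150.4 and 81.3 in normal glucose, where library 6 was the lowest, and 338, 302, 264 and 263 in high glucose. Its groups did not overlap, and its log2 fold change was the largest of the members at 1.14 ± 0.18 (SE, adjusted p = 1.04e-05, limma). Ifi44 was also the member of lowest level per length of exon, at 26.4 normalized counts per kb over the 20 libraries, against 8279.5 per kb for Ifitm3, the highest.

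Among the nucleic acid sensors, all 6 rose. They were Ddx58 (RIG-I, log2 fold change 0.42), Zbp1 (0.43), Dhx58 (LGP2, 0.27), Eif2ak2 (the kinase PKR, 0.26), Ifih1 (MDA5, 0.24) and Ifi204 (0.22), all of which detect RNA or DNA in the cell. All 5 OAS genes rose, of which Oas1a (0.55), Oas2 (0.29) and Oas3 (0.55) encode synthetases that activate RNase L. Ifi204 counted 6684, 6525, 6505 and 5678 at normal and 7739.6, 7888, 6597 and 7271 at high glucose, and library 4 of high glucose lay below library 1 of normal glucose. The OAS-like genes Oasl1 and Oasl2 were higher by 0.70 and 0.55 on the log2 scale. The dynamin-like GTPase genes Mx1 and Mx2 rose by 0.72 and 0.59. Mx2 is annotated as a polymorphic pseudogene in GENCODE M21, and protein was not measured here. Oasl2 counted 5613, 4577, 4648 and 3885 at normal and 7399, 7093, 5989 and 6874 at high glucose. Mx2 counted 530.1, 517, 421 and 417 at normal and 816, 693, 653 and 673 at high glucose, and in both genes every high glucose library lay above the normal ones.

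The antiviral enzymes and membrane proteins rose in 6 of 6 cases. Rsad2, which encodes viperin, an enzyme that makes a chain-terminating nucleotide, lies beside Cmpk2 on chromosome 12 and rose by 0.63 on the log2 scale. Ifitm3, which keeps virus from leaving endosomes, counted 5628, 4695, 5059 and 5189.8 at normal and 6698, 7376, 7240.3 and 7491 at high glucose, and its groups did not overlap. The log2 fold change of Ifitm3 was 0.49 ± 0.05 (SE, adjusted p = 6.84e-10, limma). Samd9l (0.32), Bst2 (tetherin, 0.30) and the RNA-editing enzyme Adar (0.26) were higher to a lesser degree. The 12 further interferon-induced members all rose, between 0.20 for Sp100, a nuclear body protein, and 1.14 for Ifi44. Phf11d (0.70), Rtp4 (0.52), Xaf1 (0.45), Ifi35 (0.44), Tor3a (0.42) and Slfn5 (0.33) lay between them, as did Trim30a, Slfn8, Ifi27l2a and Lgals3bp (0.22 to 0.27). Slfn5 counted 11517, 10650.2, 10408 and 9303 at normal and 14109, 14198, 11609.8 and 12776 at high glucose. Ifi27l2a counted 2818, 2338, 2429.8 and 2081 at normal and 3035, 2861, 2683 and 2791 at high glucose. In Slfn5 the groups did not overlap, while library 1 of normal glucose lay above libraries 4 and 6 of high glucose in Ifi27l2a.

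Parp9, Dtx3l and Parp14 lie together on chromosome 16 and encode ADP-ribosyltransferases and a ubiquitin ligase that act in interferon signalling. Parp14 rose by 0.34 and Dtx3l by 0.20 on the log2 scale, while Parp9 did not pass the test (0.11 ± 0.06 SE, adjusted p = 0.205, limma). Parp9 counted 3052, 3329.6, 3176 and 2762 in normal and 3568, 3576, 3068 and 3107 in high glucose, and the groups overlapped. Trim25, a ubiquitin ligase that activates RIG-I, counted 14143, 13597, 14294 and 13186 in normal and 14055, 12739, 12283 and 12833 in high glucose. It was the only member with a value below 0, -0.09 ± 0.04 (SE, adjusted p = 0.127, limma), and it was called lower in 2 of 20 alternative analyses (quantile normalization, and without library 1 of high glucose). Herc6, the main ligase for ISG15 in mice, rose by 0.37.

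The summed counts of the 8 macrophage markers were also higher in high glucose, at 808014 to 878735 against 628420 to 702912 in normal glucose, and their part in the result was not tested. The share of a library's reads taken by the 45 members was 0.426% to 0.486% in high and 0.347% to 0.411% in normal glucose. This share does not use the library factors of the normalized counts, but it depends on all other reads of the library. Without the trend of the variance on the mean, limma called 21 members, all higher, and 2.68% of all genes higher.

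**Figure D2:**
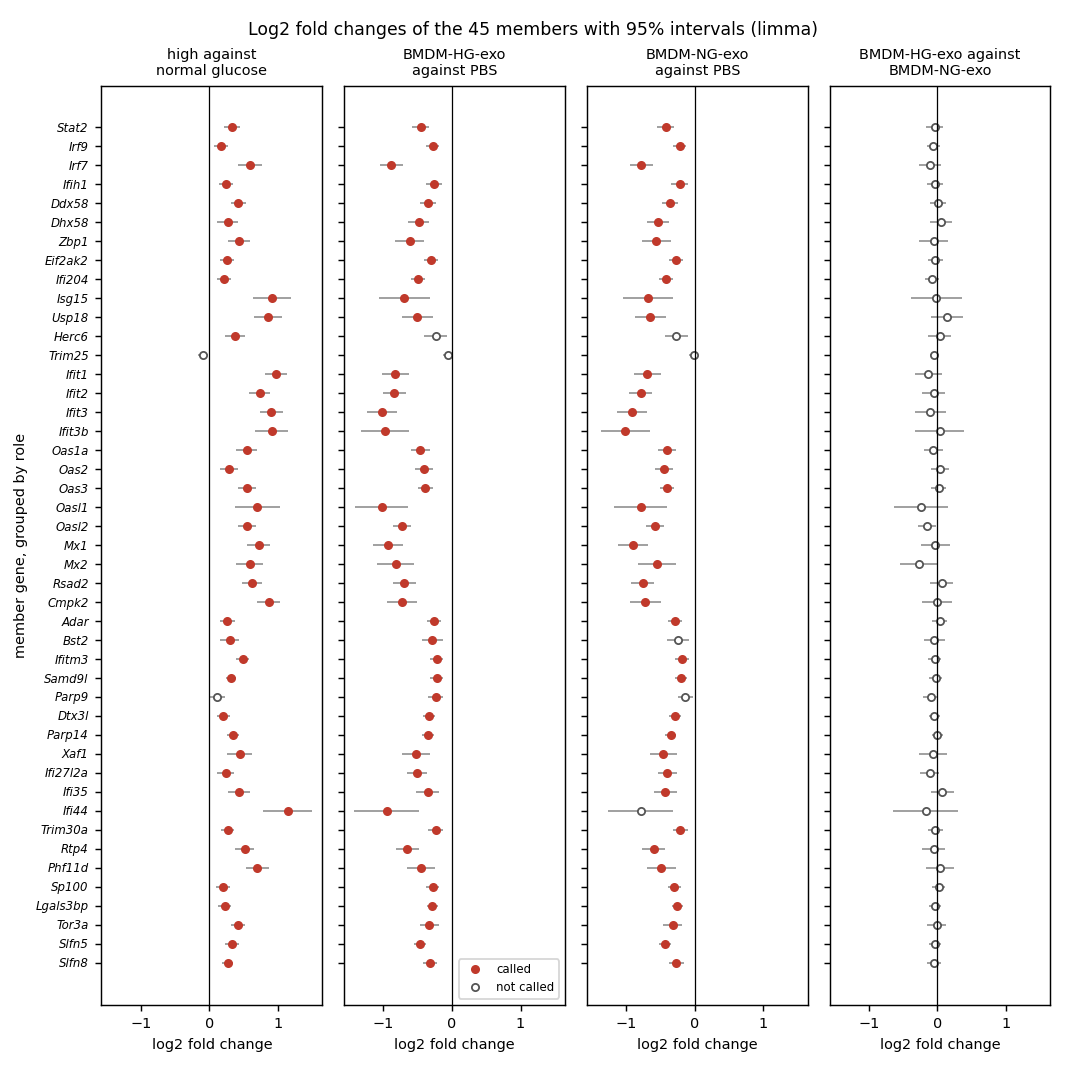
Log2 fold changes of the 45 members (rows, grouped by role) in 4 comparisons, with 95% intervals of limma as bars. Filled points passed the threshold and open points did not, and the members lie right of 0 for high against normal glucose (43 called), left of 0 for BMDM-HG-exo (43 called) and BMDM-NG-exo (40 called) against PBS, and around 0 for BMDM-HG-exo against BMDM-NG-exo (0 called).

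What exosomes did to naive macrophages was asked against PBS. BMDM exposed to BMDM-HG-exo had lower levels of nearly every member than BMDM given PBS: 43 of 45 were called lower and none higher, with a median log2 fold change of -0.46 (0.728 times the PBS level). Exposure to BMDM-NG-exo gave the same direction, with 40 of 45 called lower, none higher, and a median of -0.42 (0.747 times PBS). Of all 14413 genes tested, 3.08% were called lower and 1.76% higher with BMDM-HG-exo (4.84% in either direction) and 2.11% lower and 0.888% higher with BMDM-NG-exo (3% in either direction), and the median log2 fold change over all genes was near 0. Calls in this experiment also needed a log2 fold change of 0.15 or more in size, and the 3 groups were fitted together with limma. Both comparisons use the same 4 PBS libraries, so they are given side by side and are not independent of each other. In 41 members the 4 BMDM-HG-exo libraries all lay below the 4 PBS libraries (5.59% of all genes), and in 39 members the 4 BMDM-NG-exo libraries did (4.63%).

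Stat2 counted 3912, 3866, 4047 and 3761 with PBS, 2795, 3019.7, 2875 and 2956 with BMDM-NG-exo and 2607, 2451, 3109 and 3252 with BMDM-HG-exo. All 8 exosome libraries lay below all 4 PBS libraries, with a log2 fold change against PBS of -0.46 ± 0.06 (SE, adjusted p = 1.93e-06, limma) for BMDM-HG-exo and -0.42 ± 0.06 (SE, adjusted p = 1.66e-05, limma) for BMDM-NG-exo. Irf9 counted 3351, 3491, 3392 and 3141 with PBS, 2869.7, 2945, 2759 and 2917 with BMDM-NG-exo and 2699, 2741, 2722 and 2848 with BMDM-HG-exo. Again no exosome library reached the PBS range, and the differences were smaller, at -0.28 and -0.22 on the log2 scale (adjusted p = 9.2e-05 and 0.00356, limma). Irf7 counted 2448, 2314, 2174 and 2383 with PBS, 1362, 1529, 1171 and 1387 with BMDM-NG-exo and 1169, 1037, 1402 and 1469.9 with BMDM-HG-exo. Irf7 fell the most of these 3 factors, by 0.89 with BMDM-HG-exo and by 0.78 with BMDM-NG-exo on the log2 scale (adjusted p = 1.37e-09 and 6e-08, limma).

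Irf7, Oasl2, Slfn5 and Ifit2 had the smallest p-values against PBS, with either kind of exosome. Oasl2, an OAS-like protein with ubiquitin-like domains, counted 5320.3, 5072, 4899 and 5233 with PBS, 3399.8, 3742, 3126 and 3475 with BMDM-NG-exo and 2729, 2772, 3325 and 3603 with BMDM-HG-exo. Its PBS libraries were within a narrow range well above the rest, and the log2 fold change was -0.73 ± 0.06 (SE, adjusted p = 3.52e-10, limma) for BMDM-HG-exo and -0.58 ± 0.06 (SE, adjusted p = 1.11e-07, limma) for BMDM-NG-exo. Slfn5, a member of the Schlafen family, counted 10765, 9903, 10386 and 11013 with PBS, 7842, 8162, 7639.6 and 7620.3 with BMDM-NG-exo and 7137, 7235, 7812 and 8386 with BMDM-HG-exo. It was lower by a smaller factor but with little spread, at -0.46 ± 0.04 (SE, adjusted p = 2.51e-09, limma) and -0.43 ± 0.04 (SE, adjusted p = 3.96e-08, limma). Ifit2 counted 3528, 3017, 3614 and 3566 with PBS, 1959, 2233, 1694 and 2082 with BMDM-NG-exo and 1564, 1725, 2124 and 2314 with BMDM-HG-exo. No exosome library of Ifit2 reached the lowest PBS library, and its log2 fold change was -0.84 ± 0.08 (SE, adjusted p = 8.29e-09, limma) for BMDM-HG-exo and -0.79 ± 0.08 (SE, adjusted p = 8.66e-08, limma) for BMDM-NG-exo.

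The other IFIT genes fell as well. Ifit1 counted 1184, 1082, 1292 and 1332 with PBS, 781, 812, 617 and 824 with BMDM-NG-exo and 639, 576, 744 and 815 with BMDM-HG-exo, log2 fold changes of -0.69 for BMDM-NG-exo and -0.83 for BMDM-HG-exo. Ifit3 counted 1922, 1441, 1688 and 1670.3 with PBS, 968, 957, 699 and 952 with BMDM-NG-exo and 646, 752, 875 and 1089.6 with BMDM-HG-exo. Ifit3b counted 412, 371, 429.9 and 434 with PBS, 235, 238, 184 and 166 with BMDM-NG-exo and 135, 203, 214 and 318 with BMDM-HG-exo. Ifit3 and Ifit3b were among the members with the largest differences, with log2 fold changes of -1.02 and -0.98 for BMDM-HG-exo and of -0.92 and -1.01 for BMDM-NG-exo (adjusted p from 4.31e-08 to 0.000221, limma).

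Isg15 counted 276, 256, 187 and 288 with PBS, 149, 199, 123 and 155 with BMDM-NG-exo and 146, 129.6, 139 and 206 with BMDM-HG-exo. Library 3 of PBS was low and fell into the range of the exosome groups, so the groups overlapped, and both comparisons still passed the test (log2 fold changes -0.70 and -0.68, adjusted p = 0.014 and 0.0247, limma). Usp18 counted 779, 584, 597 and 679 with PBS, 417, 423, 374 and 462 with BMDM-NG-exo and 449.8, 528, 375 and 503 with BMDM-HG-exo, log2 fold changes of -0.65 for BMDM-NG-exo and -0.51 for BMDM-HG-exo. Cmpk2 counted 1035, 989, 1159 and 1020.2 with PBS, 602, 675, 496 and 810.5 with BMDM-NG-exo and 524, 603, 664 and 761 with BMDM-HG-exo, log2 fold changes of -0.72 and -0.73 in the same order. For Usp18 and Cmpk2 no exosome library reached the PBS range. Ifi44, the member with fewest reads, counted 189, 151, 247 and 144 with PBS, 141, 108, 90.4 and 81.3 with BMDM-NG-exo and 72.5, 111, 65.8 and 132 with BMDM-HG-exo. It was called lower with BMDM-HG-exo (-0.95 ± 0.23 SE, adjusted p = 0.0075, limma) and missed the threshold with BMDM-NG-exo (-0.79 ± 0.23 SE, adjusted p = 0.0532, limma).

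Of the sensors, all 6 fell with either exosome, from -0.26 for Ifih1 to -0.62 for Zbp1 with BMDM-HG-exo on the log2 scale. Ifi204, a DNA sensor of the IFI200 family, counted 5855, 5681, 6561 and 6337 with PBS, 4539.7, 4834, 4351 and 4557 with BMDM-NG-exo and 4085, 3945, 4498 and 4805 with BMDM-HG-exo. Its groups did not overlap PBS, with log2 fold changes of -0.50 and -0.42 for BMDM-HG-exo and BMDM-NG-exo, and 13.2% of its 75-base stretches occur also in transcripts of other genes, most often Ifi211. The 5 OAS genes and both Mx genes fell with either exosome, and Oasl1 had the largest difference of all members with BMDM-HG-exo (-1.03 ± 0.19 SE, adjusted p = 0.000376, limma). Of the transcript stretches of Oas1a, 47.6% occur also in Oas1g, so that its counts may be shared with that gene. Mx2 counted 569.9, 472, 448 and 449 with PBS, 301, 321, 279 and 434 with BMDM-NG-exo and 227, 254, 291 and 327 with BMDM-HG-exo. Library 4 of BMDM-NG-exo stood apart from the other 3 and close to PBS, and the log2 fold change of Mx2 was -0.82 ± 0.14 (SE, adjusted p = 6.29e-05, limma) for BMDM-HG-exo and -0.55 ± 0.14 (SE, adjusted p = 0.0132, limma) for BMDM-NG-exo.

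All 6 antiviral enzymes and membrane proteins fell with BMDM-HG-exo, and 5 with BMDM-NG-exo, where Bst2 missed the threshold (-0.24 ± 0.08 SE, adjusted p = 0.0815, limma). Ifitm3 counted 5881, 5734, 5471 and 5885 with PBS, 5570.4, 5238, 4534 and 4904 with BMDM-NG-exo and 4921, 4897, 4802 and 5057 with BMDM-HG-exo. The difference was small, at -0.22 and -0.19 on the log2 scale, and the BMDM-NG-exo libraries overlapped those of PBS. Ifi27l2a, a small mitochondrial membrane protein, counted 2814, 2403, 2666 and 2831 with PBS, 1920.3, 2065, 1852 and 2305 with BMDM-NG-exo and 2005, 1568, 2019 and 1944 with BMDM-HG-exo, with no exosome library in the PBS range and log2 fold changes of -0.40 (BMDM-NG-exo) and -0.51 (BMDM-HG-exo). Parp9 counted 2732, 2762, 2941 and 2868 with PBS, 2448, 2793, 2587 and 2437 with BMDM-NG-exo and 2201, 2415, 2525 and 2439 with BMDM-HG-exo. It fell with BMDM-HG-exo (-0.24 ± 0.05 SE, adjusted p = 0.00323, limma) and was not called with BMDM-NG-exo (-0.14 ± 0.05 SE, adjusted p = 0.191, limma). Herc6 was called in neither comparison (-0.24 and -0.27 on the log2 scale, adjusted p = 0.104 and 0.0758, limma). With the date as a replicate block, Bst2 (adjusted p = 0.0183) and Herc6 (adjusted p = 0.0458, limma) were called lower with BMDM-NG-exo.

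Trim25 again stood apart. It counted 14128, 14322, 13728 and 13423 with PBS, 13868, 13719.7, 13434 and 14012 with BMDM-NG-exo and 13513, 12986, 13291 and 13586 with BMDM-HG-exo. The 3 groups overlapped, and the 95% interval of its log2 fold change against PBS was -0.13 to 0.01 for BMDM-HG-exo and -0.08 to 0.05 for BMDM-NG-exo.

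**Figure D3:**
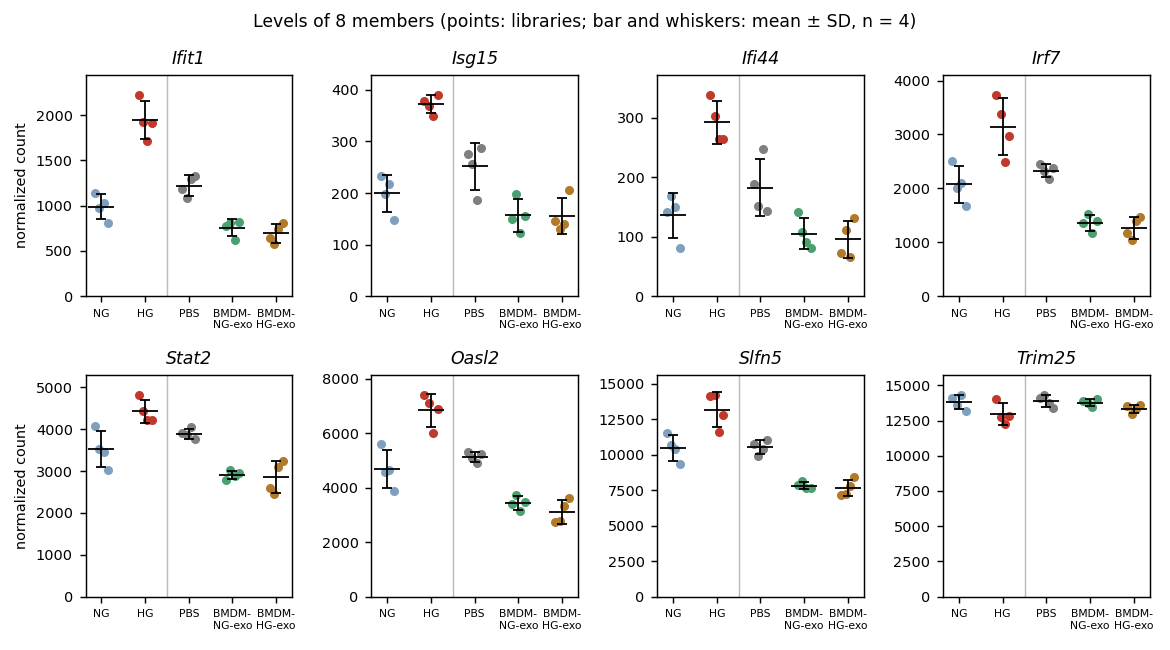
Normalized counts of 8 members in the 5 groups, with 1 point per library and the mean ± SD of 4 libraries, and a grey line between the glucose experiment (NG, HG) and the exosome experiment. In each panel but that of Trim25, the high glucose mean is the highest and both exosome means lie below the PBS mean.

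The result was also read within each of the 4 dates, where the exosome library was set against the PBS library of the same date. With BMDM-HG-exo, 45, 45, 45 and 44 members were below PBS on dates 1 to 4, with median log2 differences of -0.49, -0.46, -0.41 and -0.36. For BMDM-NG-exo, 45, 44, 45 and 44 members were below PBS, with medians of -0.41, -0.36, -0.53 and -0.35. Each of these values sets 1 library against 1 other, and the same counts were not made over all genes. As a share of all reads of a library, the 45 members took 0.365% to 0.391% with PBS, 0.291% to 0.317% with BMDM-NG-exo and 0.280% to 0.326% with BMDM-HG-exo. Here too the share depends on all other reads of the library. The PBS libraries held 34016445 to 44693640 reads and the exosome libraries 40751064 to 56310712. The summed macrophage markers were lower with exosomes, at 717507 to 773976 (BMDM-NG-exo) and 735061 to 759636 (BMDM-HG-exo) against 794502 to 841224 with PBS. Of 5 endothelial markers, Pecam1, Kdr and Vwf were listed, and their sum was 7692 to 8726 and 8329 to 9534 in the 2 exosome groups against 6608 to 7143 with PBS. The part of these markers and of depth in the result was not tested. Without the variance trend, limma called 28 members lower for BMDM-HG-exo (1.41% of all genes) and 16 for BMDM-NG-exo (0.479%).

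Whether exosomes from high glucose cells acted differently on these genes from exosomes of normal glucose cells was read from the direct comparison of the exosome groups. No member passed the test (0 of 45, with 2 of 14413 genes, 0.0139%, called overall), and 1 member had an unadjusted p under 0.05 with limma (6.54% of all genes did). The quasi-likelihood test of edgeR called 0 members and 1 of 14413 genes, with 2 members and 956 genes at an unadjusted p under 0.05. DESeq2 called 0 members, with 8 genes called higher and 14 lower, and had 0 members and 1014 genes at that unadjusted level. The median log2 fold change of BMDM-HG-exo against BMDM-NG-exo was -0.04, 12 of 45 members lay above 0 (49.5% of all genes did), and values ran from -0.27 for Mx2 to 0.14 for Usp18. The 95% intervals show how large a difference could still be present: the lowest bound of any member was -0.64 (Ifi44) and the highest 0.38 (Ifit3b), and the interval had a median half-width of 0.14.

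The 4 smallest p-values were those of Oasl2, Mx2, Parp9 and Ifi27l2a, whose library values are given above. Oasl2 had a log2 fold change of -0.15 (95% interval -0.28 to -0.02, adjusted p = 0.665, limma), and the groups overlapped. The intervals were -0.55 to 0.00 for Mx2, -0.21 to 0.01 for Parp9 and -0.26 to 0.03 for Ifi27l2a, with adjusted p = 0.773, 0.815 and 0.874 (limma). In none of the 45 members did the 4 BMDM-HG-exo libraries all lie on one side of the 4 BMDM-NG-exo libraries (3.86% of all genes in either direction). Within dates the sign varied: 37 and 41 members lay below 0 on dates 1 and 2, with medians of -0.13 and -0.18, and 7 and 11 did on dates 3 and 4, with medians of 0.09 and 0.08. Here too each date sets 1 library against 1 other, without the same counts over all genes. A p that misses the threshold does not show that the 2 kinds of exosome acted alike.

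The study itself set BMDM-HG-exo against PBS and BMDM-NG-exo combined as 1 control group of 8 libraries. All 45 members had a log2 fold change below 0 in this comparison, with a median of -0.21 (50.2% of all genes lay above 0), and none passed the adjusted threshold (0.201% of all genes did in either direction). At an unadjusted p under 0.05, limma counted 35 of 45 members and 10.5% of all genes. The lowest adjusted p was that of Oasl2 (-0.44 ± 0.11 SE, adjusted p = 0.0755, limma), followed by Mx2 (-0.55 ± 0.15 SE, adjusted p = 0.109, limma), Ifi204 (-0.29 ± 0.09 SE, adjusted p = 0.144, limma) and Ifi27l2a (-0.31 ± 0.09 SE, adjusted p = 0.15, limma). In 39 members the PBS and BMDM-NG-exo libraries that form this control group did not overlap each other, and in all 45 the BMDM-HG-exo libraries overlapped the combined controls (1.17% of all genes did not overlap them). DESeq2 called 1 member lower (0.548% of all genes) and edgeR 0 (0.153%), against 0.132% of all genes called lower by limma. Leaving out library 3 or library 1 of BMDM-NG-exo gave 11 and 2 members called lower (limma), with 0.923% and 0.465% of all genes.

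The response to high glucose and the difference between the exosome kinds share no library and were compared in 1 fit of 16 libraries. The contrast subtracted the BMDM-HG-exo minus BMDM-NG-exo difference from the high minus normal glucose difference. It was above 0 and passed the test in 36 of 45 members and below 0 in none (3.32% of all genes were called higher and 1.61% lower), with a median of 0.42. Ifit1 (1.11 ± 0.14 SE, adjusted p = 8.43e-07, limma), Ifitm3 (0.52 ± 0.07 SE, adjusted p = 2.97e-06, limma) and Oasl2 (0.71 ± 0.11 SE, adjusted p = 2.28e-05, limma) had the smallest p-values. The 9 members that did not pass were Trim25, Parp9, Dhx58, Oas2, Adar, Sp100, Herc6, Ifi35 and Bst2. Without the variance trend the count was 5, with 1.18% of all genes called higher.

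The directions of change in the 2 experiments can be set side by side because high against normal glucose shares no library with exosomes against PBS. Of the members, 42 were called higher in high glucose and lower with BMDM-HG-exo, and 40 were called higher in high glucose and lower with BMDM-NG-exo. Of the 14383 genes tested in both, 205 (1.43%) and 192 (1.33%) met these conditions, the members included. The high glucose group had the highest mean of the 5 groups in 44 members (19.1% of the 14383 genes). In 30 members each high glucose library lay above all 16 other libraries (1.24% of these genes). An order of levels across the 5 groups cannot be told apart from a difference between the 2 experiments. The lowest mean was that of BMDM-HG-exo in 32 members and of BMDM-NG-exo in 12, a pair of groups between which no member was called. The PBS mean was above the normal glucose mean in 37 members, but these groups belong to different experiments and were not tested. All 8 exosome libraries lay below all 4 PBS libraries in 39 members, against 393 of 14413 genes (2.73%).

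Within groups the members also moved together from library to library. Library 1 of normal glucose was the highest of its group for 39 members and library 6 the lowest for 39. In high glucose, library 4 was the lowest for 39 members and library 1 the highest for 28. Library 3 of BMDM-NG-exo was the lowest for 34 members, and library 4 of BMDM-HG-exo was the highest for 38 and above the group mean for 44. The median shift of the members in these libraries, on the log2 scale against the group mean, was 0.18 and -0.17 in normal glucose, -0.12 and 0.12 in high glucose, -0.13 with BMDM-NG-exo and 0.16 with BMDM-HG-exo. The summed normalized counts of the 45 members were 140940 to 171035 in normal glucose, 178926 to 206782 in high glucose, 158191 to 165096 with PBS, 122592 to 132803 with BMDM-NG-exo and 118952 to 136969 with BMDM-HG-exo.

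**Figure D4:**
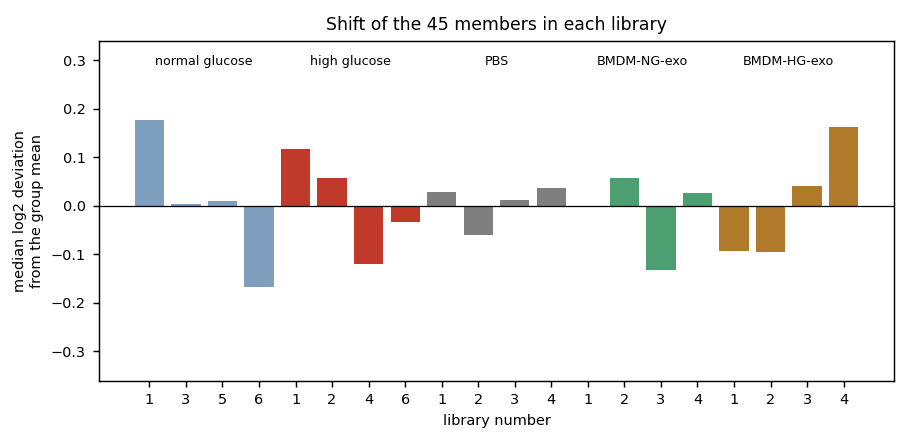
Median over the 45 members of the log2 deviation of each library from the mean of its group (bars, coloured by group). The shifts run from -0.17 in library 6 of normal glucose to 0.18 in library 1 of normal glucose, and those of the PBS libraries from -0.06 to 0.04.

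Across the 20 libraries, the Pearson correlation of a member's log2 level with the mean of the others had a median of 0.952, and it was over 0.9 in 39 members. Oasl2 (0.993), Ifit3 (0.991), Irf7 (0.990) and Ifit2 (0.990) stood at the top, and Trim25 was last at -0.13. After the group means were removed, the median was 0.752. Trim25 then stood at 0.592, above several other members, and Ifitm3 was the lowest at 0.271. The genes outside the list whose pattern was most like that of the members, over the same 20 libraries, included Rnf213 (r = 0.988), Ifi211 (0.972), Ifi206 (0.971), Ifi209 (0.967), Oas1g (0.962), Znfx1 (0.962), Siglec1 (0.960), H2-T24 (0.958) and Trim30d (0.956). These are descriptions of points that share groups and libraries, and no test was made.

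The genes that make and transmit the interferon signal were described from a separate list of the pathway. None of the 21 interferon genes of that list was among the listed genes, for each of which the median over libraries was at least 11 reads, and they were not analysed here. Of the 49 pathway genes tested, 13 rose and 3 fell in high glucose, 0 rose and 12 fell with BMDM-HG-exo, and 0 rose and 8 fell with BMDM-NG-exo against PBS. Their medians were 0.07, -0.09 and -0.06 on the log2 scale. Of all genes tested, 7.74% were called higher and 5.53% lower in high glucose. The shares were 1.76% and 3.08% with BMDM-HG-exo, and 0.888% and 2.11% with BMDM-NG-exo. At 3 of 49, the pathway genes that fell in high glucose were near the share of all genes. The same shares apply to the counts of the lists below.

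The receptor chains came first. Ifnar1 had log2 fold changes of -0.06 in high glucose, -0.11 with BMDM-HG-exo and -0.12 with BMDM-NG-exo (adjusted p = 0.375, 0.148 and 0.18, limma). For Ifnar2 these values were -0.08, -0.15 and -0.10 (adjusted p = 0.217, 0.0537 and 0.282, limma), so neither chain passed a test. Among the other receptor genes, Il10rb fell by 0.12 in high glucose and Ifngr1, a chain of the interferon gamma receptor, fell by 0.23 with BMDM-HG-exo. The kinase genes Jak1 (0.07, -0.02 and 0.03) and Tyk2 (-0.04, -0.09 and -0.05) passed none of the 3 tests. Stat3, a transcription factor of the same cascade, rose by 0.14 in high glucose and was not called with exosomes.

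Among the other interferon regulatory factors, Irf5 rose in high glucose (0.24) and fell with either exosome (-0.15 and -0.18). Irf1 rose in high glucose (0.19 ± 0.05 SE, adjusted p = 0.0135, limma), fell with BMDM-HG-exo (-0.30 ± 0.06 SE, adjusted p = 0.000421, limma) and was not called with BMDM-NG-exo (-0.16). The difference between the exosome kinds was not called for Irf1 (adjusted p = 0.665, limma). Irf3, which starts interferon transcription, passed no test (0.08, -0.15 and -0.19).

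Other sensors and adaptors were mixed. The toll-like receptor genes Tlr7 (0.28), Tlr4 (0.28) and Tlr9 (0.24) rose in high glucose, and of these Tlr9 fell with either exosome (-0.35 and -0.28). Cgas, the cytosolic DNA sensor, rose by 0.50 in high glucose. Traf3, an adaptor, rose by 0.27 in high glucose and fell with exosomes (-0.21 and -0.23), and Myd88 rose by 0.16 and fell with BMDM-HG-exo (-0.20). Ikbke, a kinase that acts upstream of IRF3 and IRF7, differed from this order: it was at 0.02 ± 0.04 (SE, adjusted p = 0.774, limma) in high glucose and fell with BMDM-HG-exo (-0.37 ± 0.04 SE, adjusted p = 2.57e-07, limma) and BMDM-NG-exo (-0.37 ± 0.04 SE, adjusted p = 3.48e-07, limma). Ikbke counted 8029, 8168, 8404 and 7409.5 with PBS, 5911, 6269.7, 6232 and 6266 with BMDM-NG-exo and 6251, 5966, 5877 and 6696 with BMDM-HG-exo.

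Of 14 negative regulators tested, 2 rose (Ptpn6, 0.27, and Tnfaip3, 0.24) and 2 fell (Ptpn1, -0.24, and Trim24, -0.20) in high glucose. With BMDM-HG-exo, 4 fell (Socs3, -0.91, Tnfaip3, -0.40, Samhd1, -0.26, and Ptpn6, -0.18), and with BMDM-NG-exo 3 of these fell, all but Socs3 (-0.40, adjusted p = 0.396, limma). Between the kinds of exosome no negative regulator was called, Socs3 included (lowest adjusted p = 0.6195, limma).

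Close relatives of the members and further interferon-stimulated genes outside the list were measured as well. Of 39 paralogs tested, 20 rose and 0 fell in high glucose (median 0.28), and 17 fell and 0 rose with each kind of exosome (medians -0.40 and -0.33). Ifi206 (0.77 in high glucose, -1.15 and -0.83 with BMDM-HG-exo and BMDM-NG-exo), Ifi213 (0.83, -0.86 and -1.27), Ifi211 (0.48, -0.78 and -0.63) and Ifi209 (0.42, -0.60 and -0.44) belong to the IFI200 family of DNA-binding proteins. The 34 further genes, some of which also stand in the pathway list, had 18 that rose and 0 that fell in high glucose, and 19 and 13 that fell with BMDM-HG-exo and BMDM-NG-exo, with none that rose. Among them, the ubiquitin ligase Rnf213 (0.41, -0.41 and -0.40) and the RNA helicase gene Znfx1 (0.36, -0.34 and -0.34) had the smallest p-values in high glucose. In neither list was a gene called when the kinds of exosome were compared, where 10 of the 73 genes had an unadjusted p under 0.05 with limma, against 6.54% of all genes.

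**Figure D5:**
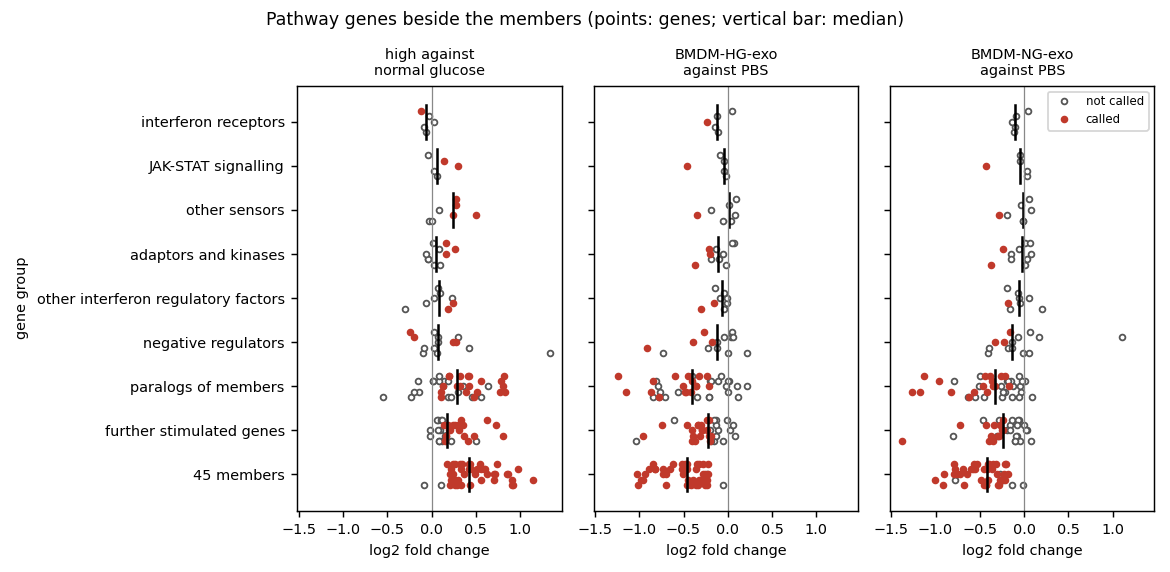
Log2 fold changes of pathway genes, of relatives of the members and of the 45 members (rows of points, 1 per gene, with the median as a vertical bar) in 3 comparisons, filled where called. Most points of the receptors and adaptors lie close to 0, while those of the relatives, the further stimulated genes and the members lie mostly right of 0 in high glucose and left of 0 with exosomes.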

How the data were processed

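RNA was sequenced from 20 BMDM libraries, 4 in each of 5 groups, prepared with a stranded total RNA kit. The submitters' notes list cutadapt, STAR, featureCounts and the build GRCm38. The deposited values are a signal of gene read counts that the authors divided by DESeq2 size factors. All values came out as whole reads after multiplication by a library factor (100% within 0.01 of a whole number), and these recovered counts gave the depth of each library (34016445 to 56310712 reads). The table holds 14456 genes, of which 14421 have a GENCODE M21 entry, with a median of at least 11 reads each, and the filter behind this minimum is not given in the sources used here.

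Genes whose normalized counts averaged 10 or more over the fitted libraries were tested with limma 3.58.1 (R 4.3.3, lmFit and eBayes with a variance trend) on log2(value + 1), and p-values were adjusted over all of these genes (Benjamini-Hochberg). Calls needed an adjusted p under 0.05 and, in the exosome experiment, a log2 fold change of 0.15 or more in size. The tests of edgeR 4.0.16 and DESeq2 1.42.0 on the recovered counts were alternatives, as were other pseudocounts, filters, normalizations, a replicate block and leaving out each library. The fits were also run on simulated reads in which chosen genes were changed by a known amount. Genes were drawn independently there, so shifts shared by many genes within a library, as seen in the members, were not simulated. Single members were also compared by exact permutation (Python 3.11.15, scipy 1.17.1), and figures were drawn with matplotlib 3.10.9. Correlations between libraries were made with numpy 2.4.6 and pandas 2.3.3.

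The members and lists were chosen with earlier results of these data known. Values in every library are given for the 3 transcription factors, the 8 members with the largest called change in high glucose, the 4 with the smallest p in each exosome comparison, any member called against the median direction, and the members of highest and lowest level per kb. Trim25, Herc6, Bst2, Parp9 and Oasl1 are also described for standing apart, which was chosen after their values were seen, and so was Ikbke among the pathway genes. The exosome numbers mark shared dates in the labels and so pair the libraries. The deviations of libraries of the same date had a mean correlation of 0.0113 over 12 pairs, against -0.0038 over 36 pairs of different dates. The glucose numbers were shared by 2 pairs only (mean correlation 0.0091) and carry no stated meaning. One gene of the pathway list is counted with its list but is not reported here by name.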

Additional observations from a re-analysis of the deposited data

Results flagged for a closer look

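In groups of 4 libraries, 1 library stood far from the other 3 in 8 of the 225 combinations of a member and a group, by the gap to its nearest neighbour over the range of the group (limit 0.829). Chance gives such a gap in about 1 in 20 groups. With BMDM-NG-exo, library 3 was the lowest for Ifit3 (gap over range 0.94) and for Bst2 (0.922), and library 2 was the highest for Samd9l (0.829). With PBS, library 2 was the lowest for Ifit2 (0.857) and Rtp4 (0.862). In high glucose, library 4 was the lowest for Oasl1 (0.913) and library 1 the highest for Ifi35 (0.859). With BMDM-HG-exo, library 2 was the lowest for Ifi27l2a (0.832).

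The response to high glucose and the difference of BMDM-HG-exo from BMDM-NG-exo differed in 36 of the 45 members (limma, test of the difference itself), each time higher for glucose.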

How the results depend on the processing

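No member's fold change turned its direction while called, in 6435 recomputed values over the alternatives, of which 229 lost and 47 gained a call, and the 143 medians all moved by less than 1 SD of the shifts between libraries (0.104). Limma without the variance trend gave 21 members called higher for high glucose (2.68% of all genes). Against PBS it gave 28 called lower for BMDM-HG-exo (1.41%) and 16 for BMDM-NG-exo (0.479%). For the difference of the responses it gave 5 called higher (1.18%). These counts were lower than in the main fit. The cause was not tested. For BMDM-HG-exo against the combined controls, DESeq2 called 1 member lower, with 0.548% of all genes. Leaving out 1 library gave 40 to 43 members called higher for glucose (5.68% to 8.4% of all genes). Against PBS, 40 to 44 were called lower for BMDM-HG-exo (2.48% to 3.19%) and 35 to 41 for BMDM-NG-exo (1.44% to 2.22%). Between the exosome groups 0 were called, with at most 0.0208% of all genes higher and 0.0347% lower. Against the combined controls, 0 to 11 were called lower (0.00694% to 0.923%), with 2 without BMDM-NG-exo library 1 and 11 without library 3. For the difference of the responses, 25 to 41 were called higher (2.54% to 3.77%). A replicate block called 42 members higher for glucose (3.59% of all genes) and 30 for the difference (1.65%). Against PBS it called 43 lower for BMDM-HG-exo (3.46%) and 42 for BMDM-NG-exo (2.41%). It called 0 between the exosome groups (0.0763% of all genes in each direction) and 0 against the combined controls (0.0833% lower). In the glucose experiment the block uses numbers without a stated meaning, and only numbers 1 and 6 occur in both groups. The blocked glucose contrast, and the glucose side of the difference, therefore rest on 2 pairs of libraries and not on all of them. Under the block, Dhx58 lost its call for glucose, and Bst2 and Herc6 gained one for BMDM-NG-exo. Ifih1, Eif2ak2, Oasl1, Xaf1, Ifi27l2a and Trim30a lost theirs for the difference. The block changed no other member's call. Other alternatives left each count within 1.5 times the main one. With 4 libraries a group, the median 95% interval of a member between the exosome groups was 0.14 to either side on the log2 scale. Smaller differences could not be told from 0. These intervals are not adjusted for the number of genes tested, so larger differences could miss the threshold too. Oasl2, at -0.15, had an adjusted p = 0.665 (limma).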
